A study of Mus musculus with 18 samples.

Results

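The genes described here are 34 genes of biliary epithelial identity and of epithelial cell junctions, taken by symbol from the 35667 genes of the count table, and every one of the 34 was found. They comprise 6 surface and secreted markers of bile duct cells (Epcam, Spp1, Prom1, Tm4sf4, Tspan8 and Cd24a), 9 transcription factors (Sox9, Hnf4a, Foxa2, Foxa3, Onecut1, Onecut2, Ehf, Grhl2 and Klf5), 5 genes of cilia, splicing and membrane traffic (Bicc1, Pkhd1, Esrp2, Rab25 and Ap1m2), 8 tight junction genes (Cldn3, Cldn4, Cldn7, Ocln, Tjp3, Cgn, Marveld2 and Marveld3) and 6 genes of desmosomes and basal anchorage (Dsp, Dsc2, Dsg2, Pkp3, Jup and Lad1). The study cultured mouse hepatic stellate cells (HSC), the vitamin A-storing pericytes of the liver sinusoid, with intrahepatic cholangiocyte organoids (ICO), which are cysts grown from bile duct cells. RNA of 18 libraries was sequenced in bulk as Smart-seq2 cDNA, a full-length method for small inputs. Levels are CPM, that is counts scaled to library size, after trimmed-mean (TMM) correction, given as mean ± SD over 3 libraries.

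The 6 groups held 3 libraries each. HSC of healthy wild-type mice were taken directly after isolation at day 0, after 7 days on plastic, after 7 days alone in Matrigel, a basement membrane gel, and after 7 days in Matrigel together with ICO. ICO, which carried the fluorescent protein dTomato, were taken after 7 days alone in Matrigel and after 7 days together with HSC. One culture medium is given for all samples, made from DMEM with serum and Advanced DMEM/F12 and supplemented with the growth factors EGF, HGF and FGF10, the Wnt enhancer RSPO3, gastrin, nicotinamide, N-acetylcysteine, B27 and N2. Cells of the Matrigel cultures were sorted at the end; the sources used here do not give the gates, the strain, age and sex of the mice, or the number of organoid lines. No label states that the 3 libraries of a group stem from different mice or cultures, and p-values therefore cover the spread between libraries alone, which may be technical.

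Bile duct cells form a polarised epithelium that lines the ducts of the liver. Claudins, occludin and the cytoplasmic plaque proteins of the tight junction seal the space between neighbouring cells, and desmosomes tie their keratin filaments together. Sox9, the Onecut factors and the forkhead factors act in the development of the biliary lineage, Hnf4a is best known as a factor of hepatocytes, and Grhl2, Ehf and Klf5 are factors of many epithelia. Stellate cells are mesenchymal and are not part of this epithelium.

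Because the results turn on members that moved apart in the organoids and on members that appeared together in HSC libraries, the 250 bases before the start of 5 of them are shown as RefSeq gives them for GRCm38.p6, 5′ to 3′ along the gene; capitals mark matches to the motifs named after them. Cldn4 and Pkhd1 had the largest increases in ICO, Hnf4a had the largest decrease, and Rab25 and Prom1 carry the grainyhead motif.
Cldn4, chr5:134946935-134947184 (minus strand): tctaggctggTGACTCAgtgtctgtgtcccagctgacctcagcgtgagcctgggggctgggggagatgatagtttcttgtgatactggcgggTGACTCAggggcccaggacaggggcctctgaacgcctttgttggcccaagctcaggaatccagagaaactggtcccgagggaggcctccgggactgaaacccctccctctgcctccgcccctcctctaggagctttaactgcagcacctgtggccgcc
Pkhd1, chr1:20618058-20618307 (minus strand): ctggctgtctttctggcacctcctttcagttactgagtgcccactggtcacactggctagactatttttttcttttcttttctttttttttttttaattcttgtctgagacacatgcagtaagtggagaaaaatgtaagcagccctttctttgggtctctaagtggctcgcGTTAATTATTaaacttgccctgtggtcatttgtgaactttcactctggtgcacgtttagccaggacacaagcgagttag
Hnf4a, chr2:163506607-163506856 (plus strand): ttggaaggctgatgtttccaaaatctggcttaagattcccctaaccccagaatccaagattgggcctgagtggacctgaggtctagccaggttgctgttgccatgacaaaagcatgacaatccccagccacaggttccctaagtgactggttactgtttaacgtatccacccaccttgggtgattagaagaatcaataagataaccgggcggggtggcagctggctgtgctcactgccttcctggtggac
Rab25, chr3:88548280-88548529 (minus strand): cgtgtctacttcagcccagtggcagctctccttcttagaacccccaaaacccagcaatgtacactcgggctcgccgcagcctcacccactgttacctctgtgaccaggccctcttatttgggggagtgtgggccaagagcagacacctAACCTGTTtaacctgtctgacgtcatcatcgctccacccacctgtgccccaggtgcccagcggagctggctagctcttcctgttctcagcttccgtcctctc
Prom1, chr5:44101737-44101986 (minus strand): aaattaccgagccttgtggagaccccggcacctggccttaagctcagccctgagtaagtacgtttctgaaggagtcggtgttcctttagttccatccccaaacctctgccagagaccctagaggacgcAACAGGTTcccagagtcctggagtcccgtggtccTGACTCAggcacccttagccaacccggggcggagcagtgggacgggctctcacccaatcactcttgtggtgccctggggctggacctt
Windows were at hand for 22 of the 34 members, with 31 starts, and 5 motifs were searched on both strands in the 250 bases before each of 32851 mouse starts. For a member with several starts, the window shown is the one with most matches or, where starts tied, the one at the lowest position. The grainyhead motif AACCNGTT was found before 1.79% of all starts and before 4 of the 31 member starts, which belong to 3 members, Cgn, Prom1 and Rab25. The AP-1 motif TGACTCA was found before 4.46% of all starts and before 2 of the 31 member starts, of Cldn4 and Prom1. In Cldn4 it occurred at 2 positions, beginning 240 and 158 bases before the start. The HNF1 motif, GTTAAT with any base and then ATT, found before 0.371% of all starts, occurred in Pkhd1, 79 bases before the start. The forkhead motif TGTTTAC, found before 3.17% of all starts, occurred among the members in Tspan8. The HNF4 motif CAAAGTCCA, found before 0.384% of all starts, occurred in no member searched. No match shown overlaps another, and a match says only that these letters are present.

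The libraries held 6907253 to 22158493 counts, the lowest in HSC co-culture replicate 1, and 19114 to 22550 genes with at least 1 count. The summed level of 12 stellate cell markers was 7954 to 62101 CPM in HSC libraries, lowest on plastic, against 25.2 to 124 CPM in ICO libraries. The HSC labels and the member genes go against each other in the gel cultures: HSC libraries from Matrigel held every member, whether or not the label names organoids in the gel, and the amount differed between libraries of 1 group. HSC alone in Matrigel replicate 1 and HSC co-culture replicate 3 stood highest in their groups. Each comparison of HSC from Matrigel was therefore also fitted without the 2 libraries of a group with most of these transcripts, an alternative chosen after seeing the data. This leaves a group with 1 library, which is then assumed to vary like the other groups in the fit. Since the libraries were picked by these same transcripts, the alternative lowers most members in that group by choice and is no test of them.

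In the organoids nearly all members were well expressed, and 32 of 34 averaged at least 10 CPM in both ICO groups. Levels of different genes are compared here per kilobase of exon (CPM per kb), with exon lengths from GENCODE M21 matched by Ensembl identifier for 34 of 34 members. In ICO alone, Spp1, which encodes the secreted phosphoprotein osteopontin, stood highest at 5475 ± 576 CPM per kb. Tm4sf4 followed at 508 ± 17.0 CPM per kb and Epcam, the epithelial cell adhesion molecule, at 496 ± 23.8 CPM per kb, and the libraries of these neighbours overlapped. Next came Cd24a with 281 ± 4.83 CPM per kb and Tspan8 with 245 ± 15.5 CPM per kb, so that surface and secreted markers held the first 5 places, Tspan8 overlapping with the gene after it. The 3 claudins Cldn3, Cldn7 and Cldn4 took the next places, at 224 ± 14.8, 160 ± 7.04 and 152 ± 10.1 CPM per kb, with Cldn7 and Cldn4 overlapping. Ehf had the highest mean of the transcription factors at 72.3 ± 4.38 CPM per kb, but its libraries overlapped with those of Klf5 (63.6 ± 5.17 CPM per kb). Sox9 stood at 48.2 ± 6.16 CPM per kb. Foxa3, Pkhd1, which encodes the ciliary protein fibrocystin, and Onecut1 were lowest, at 3.36 ± 0.899, 1.66 ± 0.191 and 1.49 ± 0.451 CPM per kb, the latter pair overlapping.

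**Figure D1:**
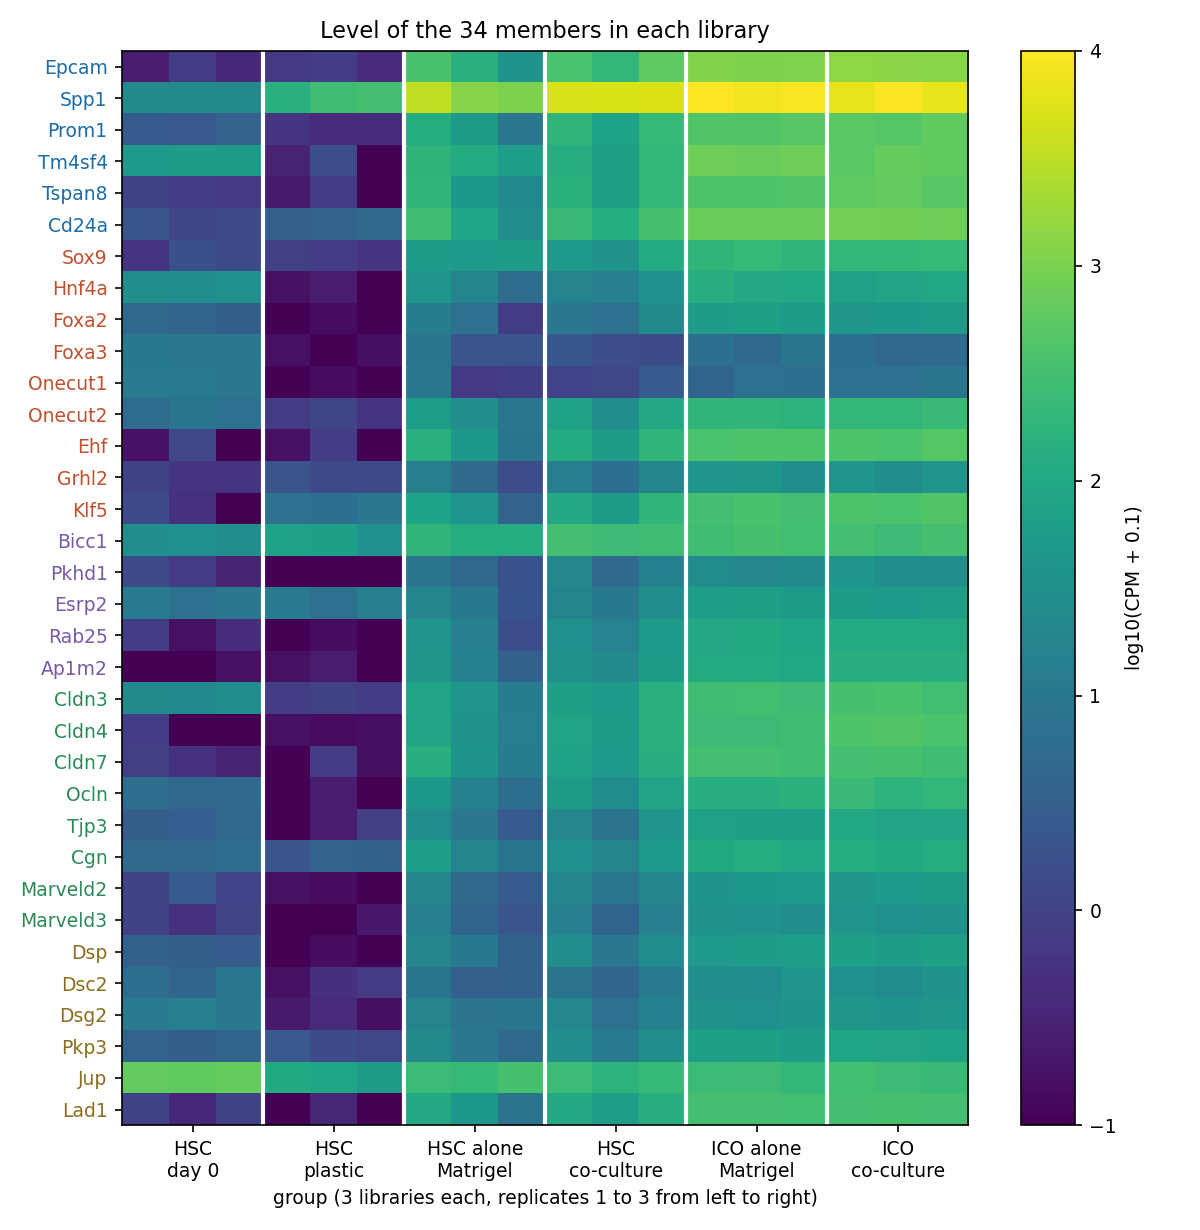
Heat map of log10(CPM + 0.1) for the 34 genes (rows, ordered and coloured by role) in the 18 libraries (columns, 6 groups of 3). ICO columns of a group are alike, replicate 3 of HSC alone in Matrigel is the darkest of its group for most genes but not for Jup, and most genes are darkest in HSC on plastic.

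The first comparison asks what organoids express with HSC in the gel and without them. With HSC in the gel, Cldn4, Ocln and Tjp3 of the tight junction and Pkhd1, Tspan8, Pkp3 and Ap1m2 were higher in ICO, and the factors Hnf4a and Foxa2 and the membrane protein Tm4sf4 were lower, each by less than 1.5-fold. Of the 34 members 7 were called higher and 3 lower at an adjusted p under 0.05 (edgeR quasi-likelihood test, Benjamini-Hochberg over 13726 genes), where 16.6% of all genes were called, 8.59% higher and 7.96% lower. Libraries of the groups did not overlap for 18 members, against 32.7% of all genes tested. The median log2 change of the members was 0.17, with 25 positive, against 0.00 over all genes.

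Among the surface and secreted markers, Tspan8, a tetraspanin, measured 394, 411 and 445 CPM in ICO alone and 588, 625 and 491 CPM with HSC. It was 1.35-fold higher (log2 0.43 ± 0.11 SE, adjusted p = 0.00814), with no overlap. Tm4sf4, another membrane protein, measured 772, 731 and 778 CPM alone and 526, 667 and 611 CPM with HSC. Its level fell by a log2 of 0.35 ± 0.10 (adjusted p = 0.0266), again with every library of 1 group beyond those of the other. Epcam measured 1148, 1049 and 1068 CPM alone and 1435, 1338 and 1276 CPM with HSC, without overlap, yet its log2 difference of 0.30 ± 0.10 missed the threshold (adjusted p = 0.0596). Spp1 measured 9948, 8053 and 9067 CPM alone and 6792, 9451 and 6513 CPM with HSC, a log2 difference of -0.26 ± 0.16 (adjusted p = 0.303). Its groups overlapped because co-culture replicate 2 lay among the libraries grown alone, and without that library the adjusted p was 0.0163. Prom1, which marks progenitor cells, and Cd24a, a mucin-like surface protein, had log2 differences of 0.20 and 0.21 that were not called.

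Of the 9 transcription factors, none was called higher and 2 were called lower. Hnf4a measured 128, 106 and 101 CPM alone and 71.7, 81.5 and 95.3 CPM with HSC. Its level fell by a log2 of 0.44 ± 0.11 (adjusted p = 0.01), with all co-culture libraries below all libraries grown alone. Foxa2, a forkhead pioneer factor, measured 54.5, 68.0 and 58.2 CPM alone and 43.6, 46.5 and 53.5 CPM with HSC. It fell by 0.35 ± 0.11 (adjusted p = 0.0444), also without overlap. Sox9, the factor most used to mark bile duct cells, measured 186, 229 and 183 CPM alone and 201, 212 and 224 CPM with HSC, so the groups overlapped (log2 0.08 ± 0.10, adjusted p = 0.656). Klf5 and Onecut2 did not overlap between the groups and had log2 differences of 0.27 ± 0.09 and 0.25 ± 0.09, which were not called (adjusted p = 0.0528 and 0.0624). Ehf and Grhl2 differed by 0.06 ± 0.10 and -0.10 ± 0.14, and the low Foxa3 and Onecut1 by -0.38 ± 0.27 and 0.38 ± 0.26.

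Among the genes of cilia, splicing and traffic, Pkhd1 measured 26.1, 20.7 and 24.3 CPM alone and 42.6, 29.7 and 31.3 CPM with HSC. It was 1.44-fold higher (log2 0.53 ± 0.15, adjusted p = 0.0224), without overlap and highest in co-culture replicate 1. Ap1m2, a subunit of the clathrin adaptor that sorts cargo to the basolateral membrane, measured 115, 114 and 100.5 CPM alone and 136, 139.5 and 141 CPM with HSC. It was 1.25-fold higher (log2 0.33 ± 0.09, adjusted p = 0.0133), and its co-culture libraries lay close together above the others. Rab25, a GTPase of recycling endosomes, also did not overlap but was not called (log2 0.20 ± 0.09). Bicc1, an RNA-binding protein of ciliated epithelia, and Esrp2, an epithelial splicing regulator, differed by -0.07 ± 0.10 and -0.17 ± 0.11.

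All 8 tight junction genes had positive differences in ICO, although that of Cldn7 turned negative without ICO alone replicate 3 or ICO co-culture replicate 2, and 3 of the 8 were called higher. Cldn4 measured 264, 265 and 296 CPM alone and 410.4, 444 and 386 CPM with HSC. It was 1.49-fold higher (log2 0.57 ± 0.09, adjusted p = 0.000383), the largest increase among the members. The gap between its groups was wider than the spread within either. Ocln, which encodes occludin, measured 139.9, 142 and 164 CPM alone and 231, 167 and 203 CPM with HSC. It was 1.34-fold higher (log2 0.42 ± 0.11, adjusted p = 0.0123), with replicate 2 of the co-culture close to the highest library grown alone. Tjp3, a plaque protein that binds claudins, was higher by log2 0.30 ± 0.09 (adjusted p = 0.0362), from 67.4 to 71.3 CPM alone to 81.3 to 95.6 CPM with HSC. The other claudins were not called. Cldn3 measured 279, 301 and 265 CPM alone and 357, 368 and 311 CPM with HSC (log2 0.28 ± 0.09, adjusted p = 0.0513). Cldn7 measured 314, 323 and 296 CPM alone and 328, 343 and 288 CPM with HSC (log2 0.02 ± 0.09, adjusted p = 0.905). Cldn3 thus did not overlap but missed the threshold, and the groups overlapped for Cldn7. The difference between claudins was not tested. Cgn, Marveld2 and Marveld3, which encode cingulin and further tight junction membrane proteins, had log2 differences of 0.10 to 0.13 and were not called.

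Of the desmosome and anchorage genes, Pkp3, the plaque protein plakophilin 3, was called. It measured 70.6, 68.8 and 54.4 CPM alone and 86.2, 83.0 and 79.0 CPM with HSC, which is 1.27-fold higher (log2 0.34 ± 0.10, adjusted p = 0.0316). The lowest co-culture library lay above the highest library grown alone. The other members of this role were not called: Dsp, the plaque protein desmoplakin, differed by 0.20 ± 0.11, Dsg2 by 0.22 ± 0.12, Jup, the plakoglobin shared with adherens junctions, by 0.15 ± 0.11, Lad1, a basement membrane anchor, by 0.04 ± 0.09, and Dsc2 by 0.00 ± 0.16.

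The size of these counts rested on single libraries. Without ICO co-culture replicate 1, 3 members were called higher and 0 lower. Without ICO alone replicate 1 the counts were 4 and 1, without ICO alone replicate 3 also 4 and 1, and without ICO alone replicate 2 the lower count was 1. Cldn4 passed in all 6 fits that left out 1 library, while each of the other 9 called members missed the threshold in at least 1 of them, with adjusted p-values up to 0.211 (Foxa2). In a fit of all 18 libraries, which adds the spread of the HSC groups, 0 members were called and Cldn4 had an adjusted p of 0.635. With DESeq2, Epcam and Cldn3 passed as well (adjusted p = 0.00365 and 0.0259). The stellate marker sum was 25.2 to 72.6 CPM in ICO alone and 74.8 to 124 CPM in ICO from co-culture, and the hepatocyte marker sum (10 genes) 23.4 to 30.3 and 42.3 to 61.0 CPM. Neither sum overlapped between the groups. Single markers of a sum went different ways. Col1a1 (0.701 to 2.10 CPM alone and 10.4 to 23.0 CPM with HSC) and Col3a1 (0 to 0.428 and 19.6 to 48.4 CPM) were higher with HSC, while Dcn measured 28.9, 34.9 and 0 CPM alone and 7.55, 10.4 and 17.0 CPM with HSC. Of the hepatocyte markers, Fga (3.99 to 9.42 and 24.7 to 35.6 CPM) and Ttr (1.57 to 4.60 and 9.40 to 13.7 CPM) were higher with HSC and Hpx was lower (13.3 to 14.8 and 6.92 to 8.49 CPM). The part of other cells in the changes was not tested.

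**Figure D2:**
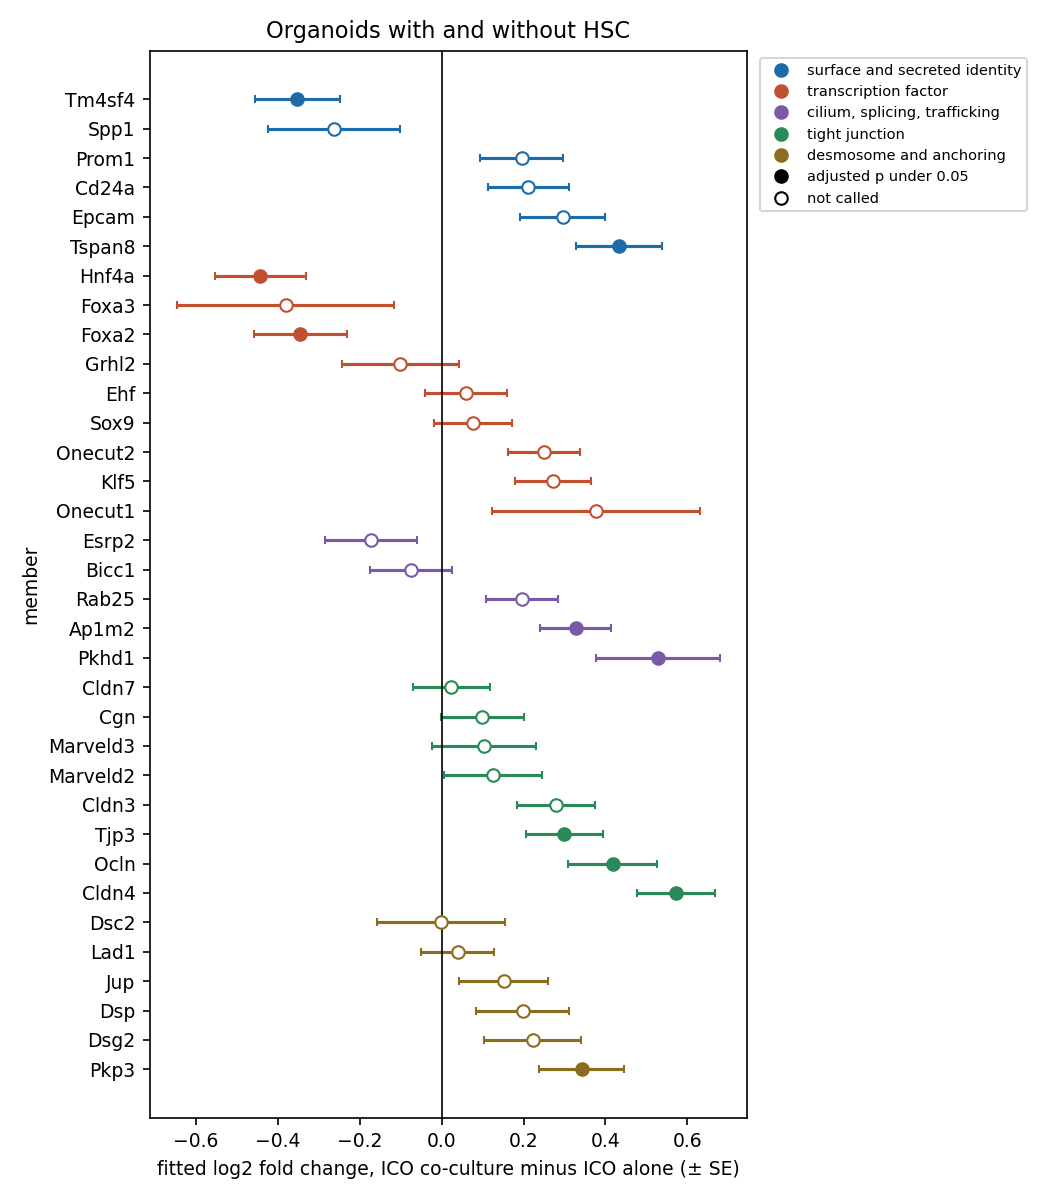
Fitted log2 difference of each of the 34 genes between ICO with HSC and ICO alone (6 libraries), with bars of 1 SE, coloured by role, filled where the adjusted p was under 0.05 and open where not. The 8 tight junction genes lie right of 0, Cldn7 closest to it, and Hnf4a, Tm4sf4 and Foxa2 are the filled points left of 0.

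Other genes of the same pathways, outside the 34, were also called in both directions, where 8.59% of all genes were called higher and 7.96% lower. Of 18 further biliary and epithelial identity genes tested (of 19), 5 were called higher and 2 lower. Elf3, an epithelial ETS factor, rose from 279 to 654 CPM (log2 1.21 ± 0.10, adjusted p = 2.77e-07). Ovol1, an epithelial zinc finger factor, rose from 10.9 to 19.8 CPM (log2 0.84 ± 0.16, adjusted p = 0.00154). The keratins Krt8 and Krt18 fell by a log2 of 0.47 ± 0.13 and 0.41 ± 0.14 (adjusted p = 0.0207 and 0.0453). Of 24 further apical junction genes 1 was called higher, Nectin4 (12.3 to 20.2 CPM), and 1 lower. Of 7 further desmosome genes tested (of 10) 1 was called higher, Ppl, which encodes periplakin (51.4 to 74.3 CPM), and 1 lower.

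The next question is how much of these transcripts HSC libraries from Matrigel held. For each HSC library, the level of each member was divided by its mean in ICO of the same culture, and the median was taken over the 32 members with at least 10 CPM in ICO. HSC alone in Matrigel held a median of 36.2%, 14.0% and 5.04% of the ICO level in replicates 1, 2 and 3. HSC from co-culture held 28.0%, 14.8% and 42.5%. The spread within each group was wide and the groups overlapped: the means were 18.4 ± 16% and 28.4 ± 13.9%, and an exact two-sided permutation test gave p = 0.4, where 0.1 is the smallest p that 3 against 3 libraries allow. The same ratio against ICO alone was 2.41% to 3.00% in HSC at day 0 and 0.0799% to 0.198% in HSC on plastic. In bulk RNA, fewer cells of a type and less RNA per cell cannot be told apart.

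Most members kept close to the median of their library. In HSC alone in Matrigel, 26, 28 and 15 of the 32 members lay within 1.5-fold of the library's median in replicates 1, 2 and 3, and in co-culture 26, 28 and 29. In the same libraries 33 of 34 members were highest in replicate 1 of HSC alone and 28 lowest in replicate 3, while in co-culture 26 were highest in replicate 3 and 31 lowest in replicate 2. Epcam, for example, measured 374, 149 and 39.5 CPM in HSC alone and 378, 207 and 566 CPM in HSC from co-culture. The claudins were likewise highest in replicate 1 and lowest in replicate 3 of HSC alone, Cldn3 with 84.0, 42.8 and 12.3 CPM, Cldn4 with 81.9, 37.0 and 13.9 CPM and Cldn7 with 139, 39.4 and 12.6 CPM. In HSC from co-culture they measured 67.2, 49.3 and 147 CPM, 81.3, 57.8 and 158 CPM, and 76.8, 51.4 and 135 CPM. Hnf4a measured 42.7, 18.3 and 5.82 CPM in HSC alone and 17.0, 14.8 and 33.8 CPM in HSC from co-culture. Medians of the 5 roles ran from 33.3% (transcription factors) to 40.8% (tight junction genes) in HSC alone replicate 1. They lay further apart in HSC alone replicate 3, from 2.96% for cilia, splicing and traffic to 9.18% for desmosomes and anchorage, and in HSC co-culture replicate 1, from 25.5% for tight junction genes to 40.5% for desmosomes and anchorage.

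**Figure D3:**
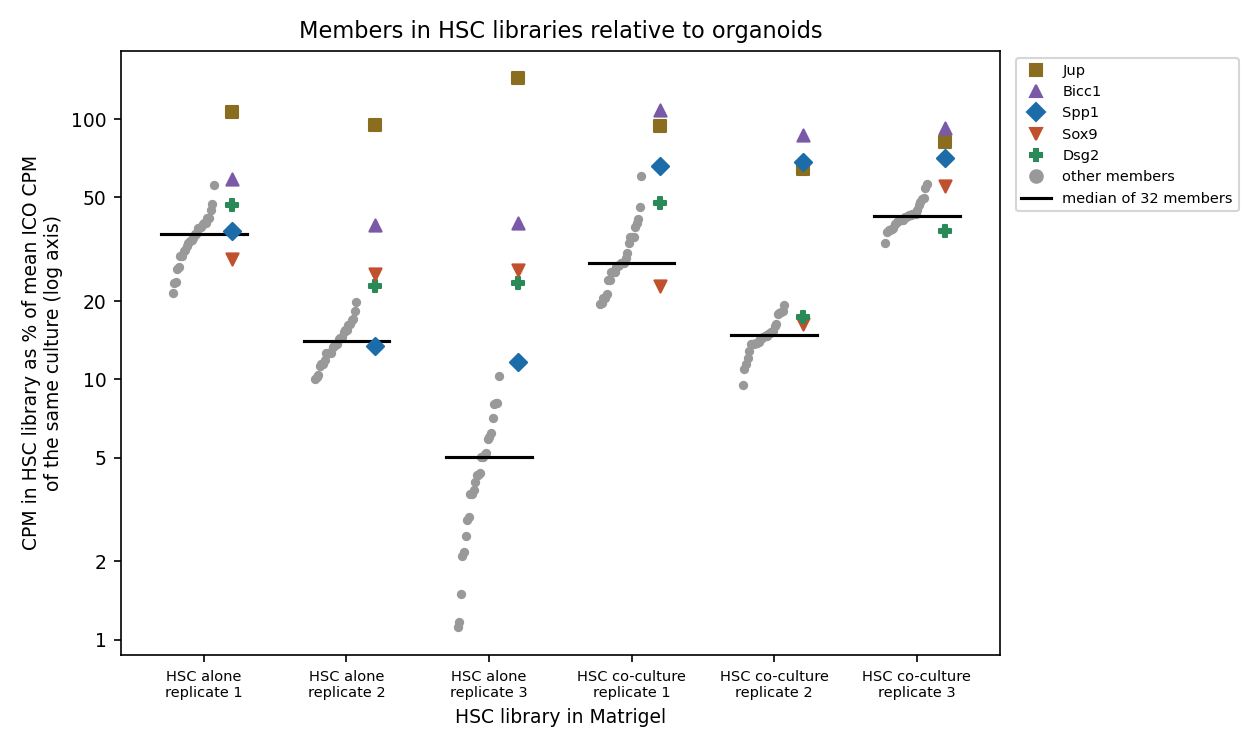
Level of each member in an HSC library from Matrigel as a percentage of its mean in ICO of the same culture (log axis), for 3 libraries of HSC alone and 3 of HSC from co-culture, with grey points for members, coloured symbols for the 5 named ones and a line at the median of 32. Most members gather around the median of their library, while Jup, Bicc1, Spp1, Sox9 and Dsg2 depart from it in the libraries described in the text.

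Some members departed from that median. Jup stood at 106%, 94.6% and 143% of ICO in HSC alone and at 94.0%, 64.0% and 81.8% in HSC from co-culture. In these Matrigel libraries Jup thus stayed at 64.0% to 143% of ICO, while the medians differed widely. Against ICO alone it stood at 251% to 270% in HSC at day 0 and at 23.4% to 44.8% on plastic. Bicc1 stood at 58.7%, 39.2% and 39.9% in HSC alone and at 108%, 86.8% and 92.6% in co-culture, the highest of the 32 members in each co-culture library. Spp1 stood at 37.1%, 13.5% and 11.7% in HSC alone, at the median in replicates 1 and 2, and at 66.1%, 68.2% and 70.9% in co-culture. Its co-culture ratios lay within a narrow range, although the medians of those libraries differed. Sox9 kept the same ratio in the 3 libraries of HSC alone, 29.1%, 25.4% and 26.4%, and followed the median more closely in co-culture, at 22.9%, 16.3% and 55.2%. Dsg2, a desmosomal cadherin, stood at 46.7%, 22.8% and 23.5% in HSC alone, above the median of replicate 3. At the other end, Foxa2, Klf5, Rab25, Prom1 and Ehf in HSC alone replicate 3 were at 1.12%, 1.17%, 1.497%, 2.09% and 2.17%, all under its median of 5.04%.

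Sums of markers of other cell types differed between the same libraries. The stellate marker sum was 18851, 25694 and 33375 CPM in HSC alone replicates 1, 2 and 3, and 17077, 28834 and 16124 CPM in HSC from co-culture. In both groups the library with the lowest median ratio to ICO had the highest stellate marker sum, and the library with the highest ratio had the lowest. Dcn, most of the sum in HSC alone (15069, 20760 and 27727 CPM), and Col3a1, its largest part in co-culture (8352, 15872 and 8240 CPM), had this order there. Other markers did not all share it: Vim measured 579, 477 and 333 CPM in co-culture, and Col1a1 133, 90.3 and 137 CPM in HSC alone. The macrophage marker sum (10 genes) had the order of the stellate sum in HSC alone, at 385, 440.3 and 478 CPM, and was 22.9, 38.1 and 37.0 CPM in co-culture. Its single genes did not all have that order in HSC alone. Cd68 (112, 124 and 162 CPM) and Adgre1 (49.3, 65.9 and 67.4 CPM) had it. Vsig4 (41.8, 58.5 and 47.2 CPM) and C1qa (31.0, 32.9 and 31.6 CPM) did not. The sum of 8 endothelial genes was 1065, 1338 and 1666 CPM in HSC alone and 423, 625 and 407 CPM in co-culture. Nearly all of it was Eng, which encodes endoglin and is not limited to endothelium (1061 to 1660 and 404 to 621 CPM), while Stab2, Kdr, Clec4g, Lyve1 and Cdh5 were each at 0 to 1.23 CPM in these libraries. The hepatocyte marker sum was 145, 58.1 and 75.5 CPM in HSC alone, above the 23.4 to 30.3 CPM of ICO alone, and 83.7, 37.7 and 64.1 CPM in HSC from co-culture, overlapping with the 42.3 to 61.0 CPM of ICO from co-culture. Single hepatocyte markers went different ways. Ahsg was at 4.20 to 13.2 CPM in HSC alone and at 0 in each library of ICO alone. Ttr measured 77.9, 12.8 and 24.0 CPM in HSC alone and 1.57 to 4.60 CPM in ICO alone. Hpx was lower in HSC alone (2.24 to 4.81 CPM against 13.3 to 14.8 CPM), and Fga overlapped (1.18 to 7.56 and 3.99 to 9.42 CPM). The sum of 5 mesothelial genes was 129, 104 and 26.6 CPM in HSC alone, 381, 219 and 363 CPM in co-culture and 538 to 770.2 CPM in ICO. In ICO it was almost entirely Msln (538 to 769 CPM), and Wt1, at 0 to 1.007 CPM there, was at 10.5 to 18.9 CPM in HSC alone and at 58.4 to 97.3 CPM in HSC from co-culture. The part of these cell types in the member transcripts of HSC libraries was not tested.

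Against ICO, HSC from Matrigel were lower for nearly all members when both were grown alone. Of 34 members 31 were called lower and 0 higher, where 56.7% of the 16233 genes tested were called and 25.8% were called lower, and the median log2 difference was -2.33 against 0.09 over all genes. The higher count was also 0 at an unadjusted p under 0.05 and with DESeq2. The largest differences were in Foxa2 (12.9, 7.58 and 0.672 CPM in HSC, 8.16-fold lower, adjusted p = 0.0076 by the edgeR quasi-likelihood test) and Klf5 (78.5, 41.9 and 3.86 CPM in HSC against 316, 362 and 315 CPM in ICO, 7.58-fold lower). Prom1 (123, 53.1 and 9.69 against 445, 446 and 500.3 CPM) was 7.12-fold lower, and Ocln (46.0, 15.5 and 6.38 CPM in HSC) 6.27-fold lower. Tm4sf4 (178, 118 and 61.6 CPM in HSC) was 6.05-fold lower and Dsc2, a desmosomal cadherin (8.56, 3.16 and 3.25 against 27.7, 27.5 and 39.5 CPM), 6.04-fold lower. In each of these genes every HSC library lay under every ICO library. Jup, at 255, 227 and 344 CPM in HSC and 251, 264 and 204 CPM in ICO, was not called (log2 0.28 ± 0.18, adjusted p = 0.205), nor were the low Onecut1 and Foxa3. A fit of the 6 libraries alone called fewer members lower, and the count was 21 to 33 with 1 library left out. Leaving out replicates 1 and 2 of HSC alone keeps the library that was lowest in most members. The difference then widens through the choice of library, so that setting adds no support.

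In cells from the shared gel fewer members passed in the fit of the 12 Matrigel libraries. The order of the counts reversed when each comparison was fitted on its own 6 libraries. In the fit of 12, 11 of the 34 members were called lower and 0 higher, where 39.6% of all genes were called and 15.6% were called lower. At an unadjusted p under 0.05 there were 27, all lower, and DESeq2 too called 0 higher. Groups did not overlap for 32 members (54.3% of all genes), and the median log2 difference was -1.76 against 0.05. Tm4sf4 had the largest difference, with 128, 69.1 and 201 CPM in HSC, 4.39-fold lower than in ICO (adjusted p = 0.00231). Cldn4 was 4.05-fold lower (adjusted p = 0.0187), Dsc2 (8.19, 4.09 and 11.7 CPM in HSC against 31.6, 26.8 and 36.9 CPM) 3.88-fold, and Cldn3 3.82-fold (adjusted p = 0.0296). Hnf4a was 3.67-fold lower (adjusted p = 0.0301) and Ocln (54.0, 27.4 and 82.3 CPM in HSC) 3.56-fold lower. Epcam, 3.41-fold lower, was not called (adjusted p = 0.0561). Sox9 was called lower, at log2 -1.63 ± 0.35 (adjusted p = 0.00419). Bicc1 did not differ detectably: it measured 330.4, 264 and 282 CPM in HSC and 318, 267 and 329 CPM in ICO, and the groups overlapped (log2 -0.01 ± 0.16, adjusted p = 0.971). Spp1 was lower in every HSC library but was not called (log2 -0.50 ± 0.35, adjusted p = 0.265), and Jup, whose groups overlapped, differed by -0.27 ± 0.18 (adjusted p = 0.247). The count of 11 varied with the settings and the libraries: 28 members were called lower with DESeq2, 31 in a fit of the 6 libraries alone, 6 without HSC co-culture replicate 1, 4 without its replicate 2, 6, 7 and 6 without ICO co-culture replicate 1, 2 or 3, and 7 without HSC co-culture replicates 1 and 3, which leaves 1 library. Hnf4a lost its call without HSC co-culture replicate 1 or 2 or any 1 library of ICO from co-culture (adjusted p = 0.054 to 0.112), and Cldn4 without HSC co-culture replicate 1 or 2 (adjusted p = 0.0682 and 0.0729). The labels give HSC and ICO libraries of the co-culture the same 3 codes, without saying that a code stands for 1 shared gel, and 33 of the 34 members were lower in HSC in every same-coded pair, Jup and Spp1 among them. With that code as a replicate block in a fit of the 6 libraries, added after seeing the data, 31 members were called lower and 0 higher. In that fit 5527 of all 14815 genes tested were called in either direction. Epcam passed there (adjusted p = 0.00194), and Jup and Spp1 did not (adjusted p = 0.215 and 0.131).

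HSC with and without organoids in the gel were compared next, using the same libraries of HSC alone. Spp1 and Bicc1 were higher in HSC from co-culture. These 2 of 34 members were called higher and 0 lower (31.1% of 17020 genes were called, 17.3% higher and 13.8% lower), and they were also the 2 members whose groups did not overlap (41.9% of all genes). At an unadjusted p under 0.05 the count was 4 over both directions, and DESeq2 also called 2 higher and 0 lower. The median log2 difference was 0.93 with 31 positive, against 0.03 over all genes, yet for most members the spread within the groups was as wide as the difference. Spp1 measured 3344, 1217 and 1052 CPM in HSC alone and 5014, 5176 and 5374 CPM in HSC from co-culture. It was 2.88-fold higher (log2 1.53 ± 0.39, adjusted p = 0.0114). Replicate 1 of HSC alone stood well above the other libraries of its group but below all co-culture libraries. Bicc1 measured 186, 124 and 126 CPM in HSC alone and 330.4, 264 and 282 CPM in co-culture, 2.08-fold higher (log2 1.06 ± 0.26, adjusted p = 0.00892). Epcam (log2 1.10 ± 0.66, adjusted p = 0.238), Cldn4 (1.22 ± 0.63, adjusted p = 0.174) and Sox9 (0.36 ± 0.38, adjusted p = 0.503) overlapped between the groups and were not called. Sox9 measured 58.0, 50.6 and 52.6 CPM in HSC alone and 48.6, 34.5 and 117 CPM in co-culture, so that replicate 3 alone stood above the group without organoids.

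These calls depended on which libraries entered. Without HSC alone replicate 1, which held the highest value of its group for 33 of the 34 members, 18 members were called higher. Leaving out its replicates 1 and 2, picked by these same values, keeps the library lowest in most members. That setting widens the difference by choice and adds no support. Without HSC alone replicate 2, 1 member was called and Spp1 was not (adjusted p = 0.0527), and with HSC co-culture replicate 2 as the lone library of its group, 0 members were. Without HSC alone replicate 3, 1 member was called lower. Of other biliary identity genes 1 of 18 tested was called higher, Sox4 (37.4 to 94.1 CPM, log2 1.38 ± 0.19, adjusted p = 0.000138). Of 24 further apical junction genes 5 were called higher and 0 lower, where 17.3% of all genes were called higher. The largest differences were in Nectin2, an adhesion molecule that is not limited to epithelia (103, 44.5 and 34.7 CPM in HSC alone and 143, 236 and 221 CPM in co-culture, log2 1.77 ± 0.33, adjusted p = 0.00185), and Mpp5 (26.7 to 41.9 CPM).

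**Figure D4:**
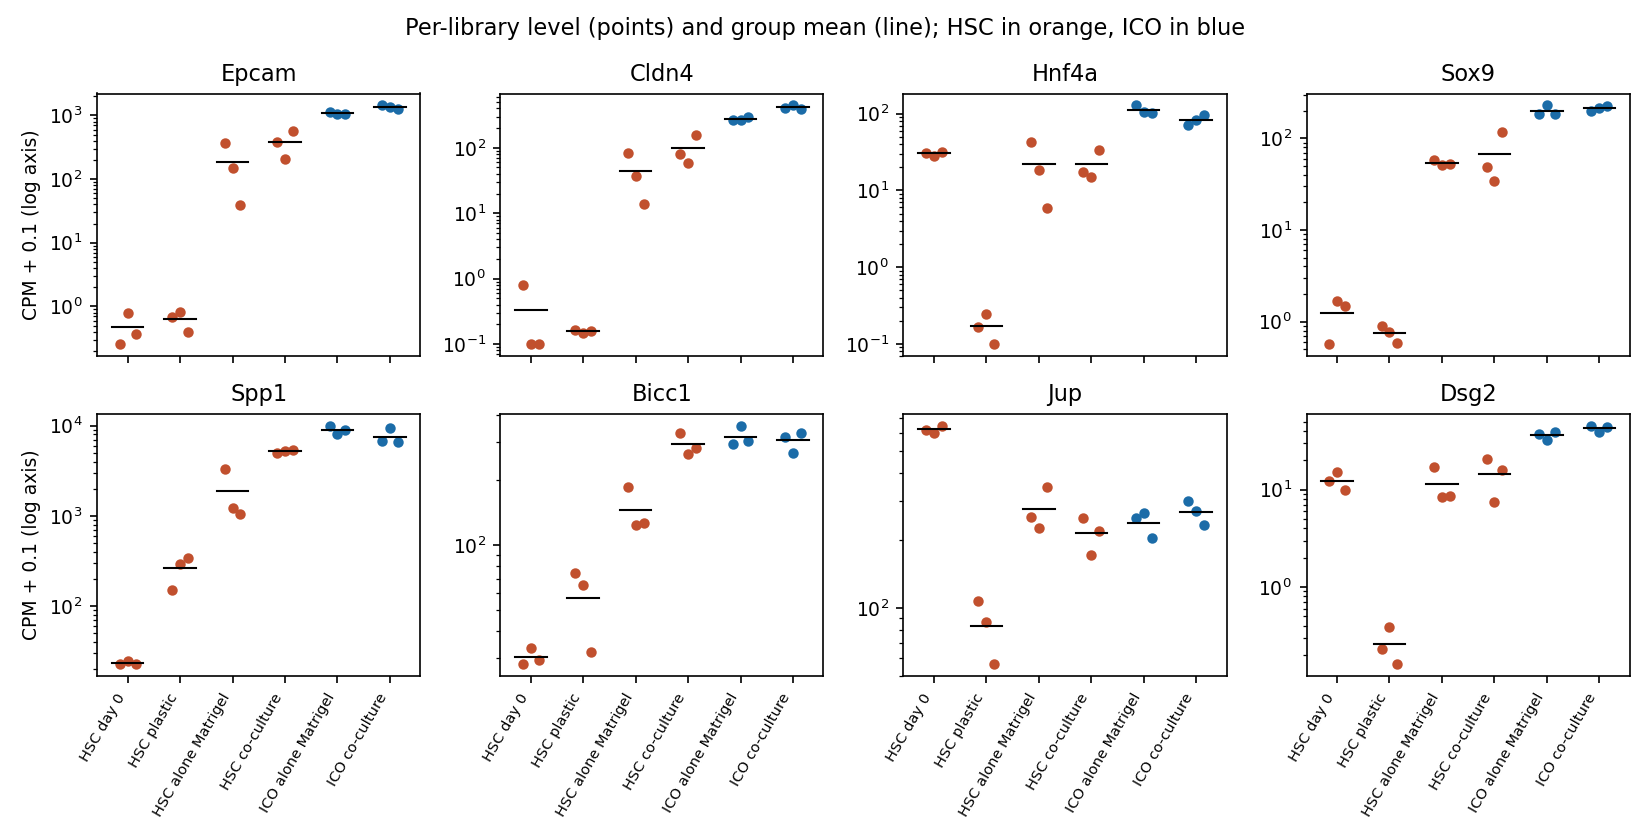
Level of Epcam, Cldn4, Hnf4a, Sox9, Spp1, Bicc1, Jup and Dsg2 as CPM + 0.1 on log axes, with a point for each of the 18 libraries and a line at the mean of each group of 3 (HSC orange, ICO blue). Spp1 and Bicc1 are higher in all 3 co-culture HSC libraries than in HSC alone, while for Epcam and Cldn4 the 3 libraries of each HSC Matrigel group are spread and overlap.

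The effect of co-culture was then set against itself in both cell types, in a test added after seeing the data (difference of the HSC and ICO effects, 12 Matrigel libraries). Of the 34 members 2 passed, where 17.2% of 16233 genes did. Bicc1 was higher with co-culture in HSC and differed little in ICO, a log2 difference of effects of 1.04 ± 0.23 (adjusted p = 0.00817). For Spp1 the difference of effects was 1.70 ± 0.49 (adjusted p = 0.0329), with means of 1871 and 5188 CPM in HSC and 9023 and 7585 CPM in ICO. The call for Spp1 was lost without the low-count filter (adjusted p = 0.124) and without any 1 of 9 libraries, namely HSC alone replicate 2, each of ICO alone, each of HSC from co-culture, and ICO co-culture replicates 1 and 3 (adjusted p = 0.0521 to 0.0802).

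On plastic the members were mostly near 0. HSC grown on plastic, where the label names no gel and no organoids, held few of these transcripts, and 32 of 34 members were higher in HSC alone in Matrigel than on plastic and 0 lower, where 55% of 17020 genes were called, 29.9% higher and 25.2% lower. The lower count was also 0 at an unadjusted p under 0.05 and with DESeq2. Groups did not overlap for 31 members, against 63.4% of all genes. Over the 3 plastic libraries, 1 member had 0 counts (Pkhd1) and 9 had 1 to 3 counts, so that fitted folds of these members are not given singly. For Pkhd1 the bound on the group mean was 87.2-fold higher in Matrigel, taking 3 counts over the plastic group as the floor. It does not hold for each library, since Pkhd1 measured 8.56, 4.68 and 1.68 CPM in HSC alone. The median log2 difference was 7.10, or 6.76 with Pkhd1 at its bound, against 0.14 over all genes. Epcam was at 0.594, 0.721 and 0.301 CPM on plastic (log2 8.33 ± 1.00, adjusted p = 9.84e-05 by the edgeR quasi-likelihood test). Rab25 was at 0, 0.048 and 0 CPM on plastic and at 40.2, 14.7 and 1.51 CPM in Matrigel (adjusted p = 0.000976), and Cldn4 at 0.066, 0.048 and 0.0601 CPM on plastic (adjusted p = 0.000138). Lad1 went from 0, 0.240 and 0 CPM on plastic to 105, 46.3 and 8.12 CPM. Dsp went from 0, 0.048 and 0 to 19.1, 10.2 and 3.47 CPM, and Ocln was at 0, 0.144 and 0 CPM on plastic. Every Matrigel library lay above every plastic library in these 6 genes. Sox9 measured 0.792, 0.672 and 0.481 CPM on plastic, and Cldn7 0, 0.624 and 0.0601 CPM. Klf5 (7.66, 6.48 and 9.62 CPM on plastic, adjusted p = 0.053) and Esrp2 (10.9, 7.11 and 13.7 CPM on plastic, adjusted p = 0.906) overlapped between the groups and were not called. With replicate 3 as the lone library of HSC alone, 30 members were called higher and 1 lower. The gel, the sort and the cells cannot be told apart in this comparison, since the sort is given for the Matrigel cultures only.

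Freshly isolated HSC held some members at moderate levels, and most of these fell on plastic while Spp1, Klf5 and Bicc1 rose. From day 0 to day 7 on plastic 16 members were called lower and 3 higher, where 58% of 17020 genes were called, 30.5% lower and 27.5% higher. Groups did not overlap for 25 members, against 69.8% of all genes, and the median log2 difference was -2.84, the same with Pkhd1 at its bound, against -0.10 over all genes. Hnf4a measured 31.0, 28.2 and 31.8 CPM at day 0 and 0.066, 0.144 and 0 CPM on plastic (adjusted p = 2.55e-05). Onecut1 measured 10.9, 12.2 and 9.54 CPM and Foxa3 10.4, 9.80 and 10.1 CPM at day 0, and both had under 0.1 CPM in each plastic library. Tm4sf4 fell from 48.4, 54.7 and 53.8 CPM to 0.198, 1.49 and 0 CPM and Cldn3 from 24.1, 21.9 and 27.5 CPM to 0.726, 0.817 and 0.662 CPM. Dsg2 fell from 12.1, 15.1 and 9.74 CPM to 0.132, 0.288 and 0.0601 CPM. None of these groups overlapped. The hepatocyte marker sum moved with them, from 16889 to 17829 CPM at day 0 to 0.902 to 9.99 CPM on plastic, as did the stellate (53710.2 to 62101 CPM at day 0 and 7954 to 12437 CPM on plastic), endothelial (2877 to 2896 and 814 to 1017 CPM), macrophage (691 to 735 and 25.4 to 177 CPM) and mesothelial sums (40.2 to 43.4 and 5.57 to 18.3 CPM). Most of the fall in the stellate sum was Dcn (45253 to 53441 CPM at day 0 and 4447 to 8498 CPM on plastic). Single stellate markers went both ways. Reln also fell (2371 to 2745 and 61.8 to 139 CPM), while Col1a1 (153 to 165 and 858 to 1030 CPM) and Vim (210 to 228 and 514 to 679 CPM) rose. Single macrophage and mesothelial markers did not all fall. Cd68 measured 17.03, 23.01 and 15.98 CPM at day 0 and 5.87, 7.73 and 34.52 CPM on plastic. The other macrophage genes were lower in every plastic library. Wt1 (7.22 to 8.64 and 3.75 to 8.58 CPM), Upk1b (3.14 to 3.61 and 0 to 6.56 CPM) and Lrrn4 (1.92 to 4.86 and 0 to 2.71 CPM) overlapped. Msln and Upk3b fell. The part of these cell types in the result was not tested. Epcam, Sox9, Cldn4 and Cldn7 were near 0 at day 0 already, at 0.157 to 0.681, 0.471 to 1.57, 0 to 0.706 and 0.206 to 0.785 CPM.

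Jup was high in freshly isolated HSC. It measured 621, 602 and 646 CPM at day 0 and 107, 87.0 and 56.1 CPM on plastic, and fell by a log2 of 2.83 ± 0.25 (adjusted p = 6.7e-07). In HSC alone in Matrigel it was 3.17-fold above plastic (log2 1.66 ± 0.24, adjusted p = 8.1e-05), and every library there lay between the day 0 and the plastic libraries. Spp1 took the opposite course on plastic, from 22.8, 24.2 and 22.4 CPM at day 0 to 149, 292 and 341 CPM (11.7-fold higher, log2 3.55 ± 0.43, adjusted p = 1.99e-05). It was a further 6.87-fold higher in HSC alone in Matrigel (adjusted p = 0.000155). Bicc1 rose from 28.0, 33.5 and 29.4 CPM to 74.3, 65.3 and 31.9 CPM (log2 0.98 ± 0.27, adjusted p = 0.00691), with plastic replicate 3 inside the range of day 0. Klf5 rose from 1.26, 0.408 and 0 CPM to the levels given above (log2 3.94 ± 1.28, adjusted p = 0.0236), a call lost without day 0 replicate 2 or 3 or plastic replicate 3 (adjusted p = 0.074, 0.0696 and 0.0566).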

How the data were processed

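The labels place 18 mouse libraries in 6 groups of 3. The table the authors deposited holds estimated counts by gene. Per the submitters' processing notes the tools included kallisto 0.46.1 as well as DESeq2 1.36.0, and the build was GRCm39; their roles, the annotation release, any filters and how transcripts were summed were not given in the sources used here. Before testing, these estimated counts were rounded. Where a symbol occurred more than once (43 symbols), the entry with the higher total kept it.

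Differences were tested over all genes by edgeR's quasi-likelihood test (version 4.0.16, R 4.3.3) with robust fitting, TMM factors, the default filter on low counts, Benjamini-Hochberg adjustment and a threshold of 0.05, on the 6 ICO libraries, the 12 HSC libraries or the 12 Matrigel libraries, and checked on simulated data. The SE is the fitted log2 change divided by the square root of F, so it is no error apart from the test. CPM used TMM factors over 18 libraries. Depth was 6907253 to 22158493 counts, and floors of 3 counts cover counting error only. Reads of genes with close relatives may be divided among them. Strand is not given.

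The 34 members, the lists, the motifs and the tests were chosen with earlier results of these data known. Named in every library were Epcam, Sox9, Hnf4a, Cldn3, Cldn4, Cldn7 and Spp1, up to 6 called members per direction with at least 10 CPM, and up to 2 called genes per direction of each other list. Further members are described by role or were singled out after their values were seen, namely Jup, Bicc1, Klf5, Esrp2 and Dsg2. Alternatives were DESeq2 1.42.0, other filters and scalings, other sets of libraries, a replicate block and leaving out libraries. Same-numbered libraries did not deviate together in every pair of any comparison (correlations over 10000 genes from -0.463 to 0.109), so the numbers were not treated as pairs, nor were the codes shared by HSC and ICO libraries of the co-culture, except in an alternative. All pairs of libraries of a group differed by more than counting noise.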

Additional observations from a re-analysis of the deposited data

Results flagged for a closer look

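The effect of co-culture differed between HSC and ICO for 2 of the 34 genes, where it did so for 17.2% of all 16233 genes tested. The test was of the difference itself and was chosen after seeing the data (edgeR quasi-likelihood test, 12 Matrigel libraries). For Spp1 the log2 effect in HSC was larger than that in ICO by 1.70 ± 0.49 (SE, adjusted p = 0.0329). Over 17 other settings the difference ranged from 1.41 to 2.43 and its adjusted p from 2.93e-05 to 0.124, and it was past the threshold in 7 of them. For Bicc1 the difference was 1.04 ± 0.23 (adjusted p = 0.00817). It was past the threshold in all 17 settings, ranging from 0.93 to 1.27. HSC from co-culture were higher than HSC alone in 3 of 3 libraries for both genes.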

How the results depend on the processing

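The members called higher in ICO with HSC numbered 11 with DESeq2, 0 in a fit of all 18 libraries and 3 to 9 when 1 library was left out, and those called lower 0 in the fit of 18 libraries and 0 to 3. The count over all genes there was 546 with 18 libraries and 1427 to 1948 with 1 left out. In HSC alone against ICO alone, 20 members were lower in a fit of the 6 libraries, and 21 to 33 with 1 library left out. In the shared gel the lower members were 28 with DESeq2, 7 with no filter, 19 with the stricter filter, 30 with 18 libraries, 31 with 6, 31 with the culture code as a replicate block on these 6, 7 without HSC co-culture replicates 1 and 3, and 4 to 12 with 1 library left out. In HSC with against without organoids, 1 member was lower with 18 libraries and 0 to 1 with 1 library left out, and members called higher were 25 without HSC alone replicates 1 and 2, 0 without HSC co-culture replicates 1 and 3, and 1 to 18 with 1 library left out. Calls over all genes there were 3453 with 6 libraries, 3241 without HSC co-culture replicates 1 and 3, and 3807 to 6099 with 1 left out. Against plastic, 1 member was lower without HSC alone replicates 1 and 2. On plastic against day 0, 5 members were higher with 6 libraries. The settings that leave out a pair of libraries, and so leave a group with 1 library that is assumed to vary like the other groups, and the culture code block were chosen after seeing the data. The pairs were picked by the level of these same members, so counts from those settings are no test of them.

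Log2 differences that changed sign, none of them called, were these. Cldn7 in ICO ranged from -0.040 to 0.0988 with 1 library left out, and was -0.0042 without ICO alone replicate 3. Bicc1 in the shared gel was 0.010 with the stricter filter and ranged from -0.132 to 0.0615 with 1 library left out. Hnf4a in HSC with against without organoids was -0.016 with the stricter filter, -0.044 with 6 libraries, -0.539 without HSC co-culture replicates 1 and 3, and from -0.419 to 0.916 with 1 library left out. Sox9 there was -0.600 without HSC co-culture replicates 1 and 3, which also turned Cldn7 to -0.262, and from -0.314 to 0.685 with 1 library left out. The cause was not tested.

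With the replicate block on all libraries of a fit, 7 members were higher and 3 lower in ICO, and the counts in the other comparisons stayed within 1.5-fold. RLE in place of TMM moved the median of all genes by at most 0.0252. The ratios to ICO moved by less than 1 SD between the libraries of their group in all 42 alternatives. That SD is wide, and in HSC alone it exceeds the lower ratios themselves. The check could therefore hardly fail, and it does not show that the ratios are stable. Members with 3 counts or fewer on plastic give no reliable fold.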
